A study of Mus musculus with 6 samples.

Results

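Long-chain fatty acids enter metabolism only after they are joined to coenzyme A (CoA), and 2 enzyme families are among those that set how much of that activated form a cell holds. Described here are 10 genes of these families in C2C12 mouse myoblasts, 5 long-chain acyl-CoA synthetases (Acsl1, Acsl3, Acsl4, Acsl5 and Acsl6) and 5 acyl-CoA thioesterases (Acot1, Acot2, Acot7, Acot9 and Acot13). They were chosen by gene symbol from the 22272 symbols of the deposited table, and 9 of the 10 had enough counts to be tested among 12166 genes. All 6 samples were undifferentiated cells of this myoblast line at day 0. In 3 samples the cells overexpressed ChREBP-beta, the short and highly active form of the glucose-responsive transcription factor encoded by Mlxipl. In the other 3, of the label genotype WT, the cells carried green fluorescent protein (GFP). The sources used here do not give how the factor was introduced, whether the lines are clones or whether replicates are separate cultures. The p-values therefore refer to the spread among these libraries, which may be technical.

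As background, synthetases spend ATP to make acyl-CoA, and thioesterases split it back to free fatty acid and CoA. The product of the first family is the shared substrate of triglyceride and phospholipid synthesis and, through carnitine, of oxidation in mitochondria. Members of both families sit in different compartments of the cell and prefer different chain lengths. Several, Acsl1 and Acot1 among them, are known targets of the fat-sensing PPAR receptors in liver and muscle.

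The libraries held 17600238 to 19163833.9 counts, and the ranges of the groups overlapped. Levels are given as CPM, the counts scaled to a common library total of 1000000 after TMM normalization, which makes libraries of unlike depth comparable. Mlxipl was read at 219 ± 3.85 CPM with ChREBP-beta and 0.599 ± 0.111 CPM with GFP (SD, n = 3 each). All 7 myoblast markers examined were detected, but their summed level was 215 to 225 CPM with ChREBP-beta, against 510 to 537 CPM with GFP. Myod1, the factor that sets muscle identity, averaged 1.23 CPM with ChREBP-beta and 30.8 CPM with GFP. The 4 neuronal markers summed to 23.7 to 30.1 CPM with ChREBP-beta and 141 to 147 CPM with GFP, nearly all of it Stmn2. With ChREBP-beta and GFP in turn, Stmn2 averaged 26.1 and 139 CPM, Syt1 0.368 and 4.37 CPM and Snap25 0.0354 and 0.145 CPM. Rbfox3 was at 0 in every library. Markers of hepatocytes and lung epithelium were present in all ChREBP-beta libraries and differed widely among the GFP libraries. Summed over 7 hepatocyte genes they reached 16.3 to 22.4 CPM with ChREBP-beta and 0.319, 0.166 and 25.2 CPM in GFP replicates 1 to 3. Summed over 5 lung genes they reached 70.2 to 90.9 CPM with ChREBP-beta and 0.523, 134.7 and 94.1 CPM in GFP replicates 1 to 3. Red cell markers (6 genes, of which Slc4a1 was at 0 in all GFP libraries and Hbb-bt, Hba-a2 and Alas2 in GFP replicate 1) summed to 5.55 to 9.91 CPM with ChREBP-beta and 3.35 to 11.0 CPM with GFP, and 4 leukocyte markers to 2.13 to 3.01 CPM with ChREBP-beta and 1.54 to 2.67 CPM with GFP. The 5 adipocyte markers stayed at 0.231 to 1.36 CPM with ChREBP-beta and 0.105 to 0.724 CPM with GFP, with Lep at 0. The part of these marker lists in the results on the members was not tested beyond the values given beside them.

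Acot1 and Acot2 are near copies of each other, which bears on how their reads can be counted. They lie side by side on chromosome 12 (GENCODE M21 on GRCm38, as for all gene positions given here), Acot2 at chr12:83987861-83993873 and Acot1 at chr12:84009490-84018371, both on the plus strand. Their coding sequences match at 95.3% of 1236 aligned bases, with an identical run of 273 bases. A stretch of 100 coding bases from the GENCODE transcripts, coding positions 1243 to 1342 of Acot2 and 1120 to 1219 of Acot1, shows how few bases separate them, with the 5 differing bases in capitals.
Acot2: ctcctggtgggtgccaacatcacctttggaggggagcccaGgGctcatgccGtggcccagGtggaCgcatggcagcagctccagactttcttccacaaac
Acot1: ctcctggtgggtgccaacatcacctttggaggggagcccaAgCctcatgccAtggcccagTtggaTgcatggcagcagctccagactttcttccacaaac

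The 250 bases before each annotated start were aligned end to end (RefSeq, GRCm38.p6, plus strand, chr12:83987611-83987860 for Acot2 and chr12:84009252-84009501 for Acot1). They match at 48.0% of 227 aligned bases. The annotated starts do not lie at matching positions of the 2 genes. This share therefore cannot say how alike their upstream sequences are, and the windows are shown as they stand.
Acot2 upstream: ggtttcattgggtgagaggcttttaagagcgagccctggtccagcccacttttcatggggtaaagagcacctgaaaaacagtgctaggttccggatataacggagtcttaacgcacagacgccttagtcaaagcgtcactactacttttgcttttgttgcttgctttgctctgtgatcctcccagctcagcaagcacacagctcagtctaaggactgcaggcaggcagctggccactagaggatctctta
Acot1 upstream: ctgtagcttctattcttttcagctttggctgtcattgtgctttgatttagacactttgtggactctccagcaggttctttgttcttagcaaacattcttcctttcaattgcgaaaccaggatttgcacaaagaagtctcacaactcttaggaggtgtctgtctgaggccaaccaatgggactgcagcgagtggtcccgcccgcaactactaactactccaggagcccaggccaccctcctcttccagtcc

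The other members are farther apart in sequence. Acsl3 and Acsl4 share 65.3% of their aligned coding bases, and Acsl1, Acsl5 and Acsl6 share 61.3% to 66.3% among themselves, with no identical run above 22 bases. Acot9 matches Acot10, which had no count in any library, at 97.2%.

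Every change called among the 9 tested members was a decrease with ChREBP-beta. The 5 members that fell were Acsl1, Acsl3 and Acsl5 of the synthetases and Acot1 and Acot9 of the thioesterases, and 4 were not called (edgeR quasi-likelihood test, Benjamini-Hochberg adjustment over all genes tested, calls at an adjusted p under 0.05). The share called, 55.6%, was near the 58.7% called among all tested genes. Of all genes tested 29.3% were called lower and 29.5% higher. The members' median log2 fold change was -0.17, beside -0.004 over all genes, and only Acot1 among them changed by at least 1.5-fold, as 19.8% of all genes did (called and at least 1.5-fold). In 5 of the 9 tested members, those called, all ChREBP-beta libraries lay below all GFP libraries. The same held for 32.0% of all genes tested, called or not, and 63.2% did not overlap in either direction. In bulk RNA, fewer cells of a type and less RNA per cell cannot be told apart.

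**Figure D1:**
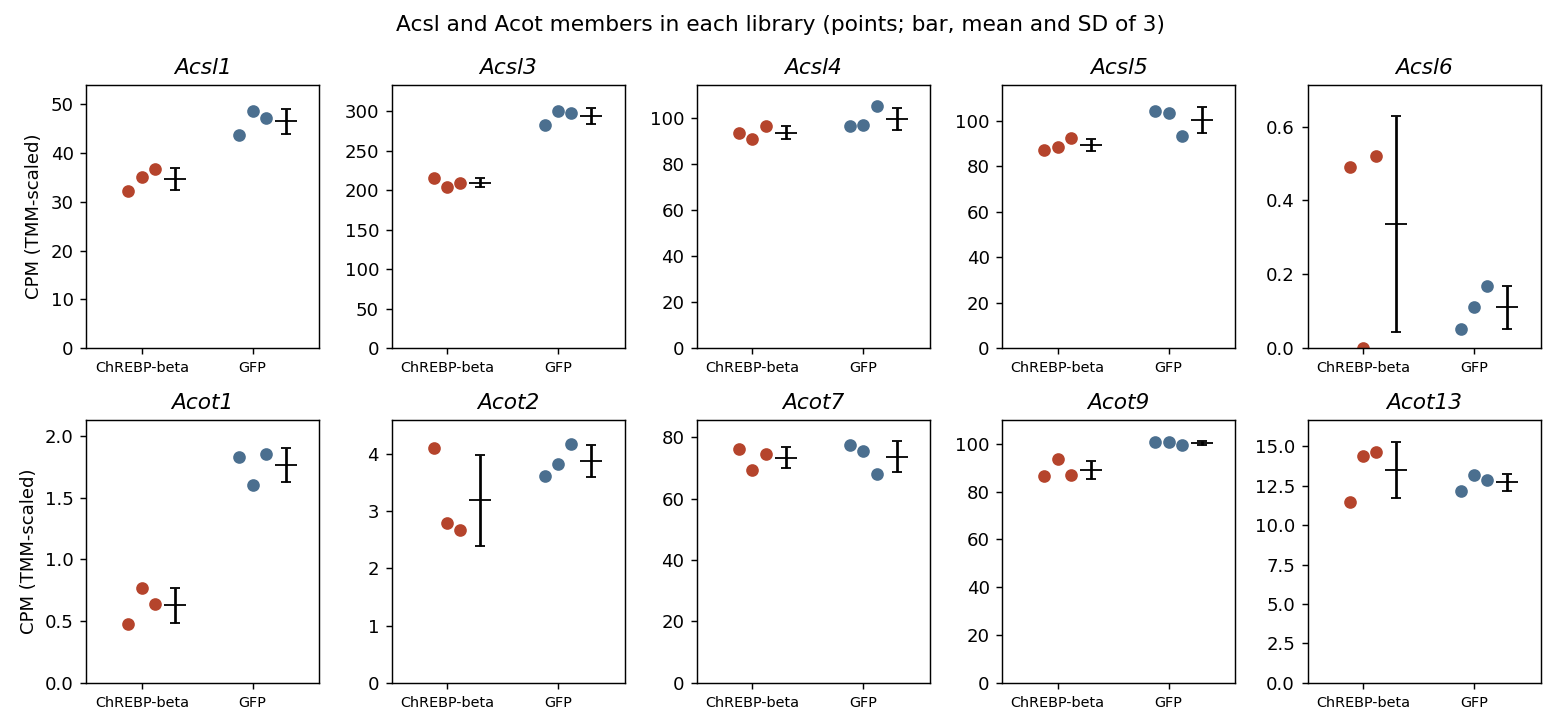
CPM scaled by TMM of the 10 members in each library, with a vertical axis of its own for each gene and starting at 0; points are libraries and the bar beside them is the mean ± SD of 3. The ChREBP-beta points lie below all GFP points for Acsl1, Acsl3, Acsl5, Acot1 and Acot9 and overlap them for the other members.

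Acsl3 is the synthetase of the endoplasmic reticulum and of nascent lipid droplets, and it was the most abundant member in both groups. Its level was 215, 204 and 209 CPM in the ChREBP-beta libraries (in replicate order, as throughout), against 283, 301 and 298 CPM in the GFP libraries. The groups did not overlap, and the difference was many times the spread within either. It was 1.40-fold lower (log2 fold change -0.49, SE 0.032, edgeR adjusted p = 2.47e-12), the smallest p of the members.

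The Acsl3 locus (chr1:78657825-78707743, plus strand) shares 244 exon bases with Utp14b, a gene on the same strand related to a yeast factor of ribosomal RNA processing. Utp14b averaged 33.0 ± 1.26 CPM with ChREBP-beta and 43.9 ± 1.73 CPM with GFP (SD, n = 3 each), 1.33-fold lower (edgeR adjusted p = 2.03e-06). The only library in which Acsl3 had a count that was not whole was ChREBP-beta replicate 2, with 3845.65, where Utp14b had 648.35, and the sum of the pair is whole.

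Acsl1, on chromosome 8 (chr8:46471037-46536051, plus strand), encodes the main synthetase of liver, fat and heart, which in those tissues feeds both storage and oxidation. It stood at 32.2, 35.1 and 36.7 CPM with ChREBP-beta, against 43.6, 48.7 and 47.2 CPM with GFP. Each ChREBP-beta library was below each GFP library. Acsl1 fell 1.34-fold (log2 fold change -0.42, SE 0.063, edgeR adjusted p = 2.81e-06). The hepatocyte marker Alb had 273, 208 and 169 counts with ChREBP-beta and 2, 0 and 292 counts with GFP. Within the GFP group the summed lung markers (0.523, 134.7 and 94.1 CPM) ran in the same order as Acsl1, and as Acsl3. Within the ChREBP-beta group the lung sums were 90.4, 90.9 and 70.2 CPM, an order that neither gene followed. The part of either marker in these results was not tested. Leaving out each library in turn gave Acsl1 log2 fold changes of -0.47 to -0.37. Acsl1 shares 1039 exon bases with Gm45244 on the opposite strand. Whether counting used strand is not known, so reads in those bases cannot be assigned to either gene.

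Acsl5, found on mitochondria and the endoplasmic reticulum and known for its high level in intestine, changed less. It was read at 87.2, 88.3 and 92.4 CPM with ChREBP-beta and at 104, 103 and 93.5 CPM with GFP. The highest ChREBP-beta library and the lowest GFP library, replicate 3 in each group, lay close together. The fit gave a 1.12-fold fall (log2 fold change -0.17, SE 0.044, edgeR adjusted p = 0.00184). Acsl5 (chr19:55251938-55297720, plus strand) shares 404 exon bases with Zdhhc6 on the opposite strand, and Zdhhc6, an enzyme that attaches palmitate to proteins, was 1.10-fold higher (edgeR adjusted p = 0.0069). Without knowing whether counting used strand, reads in the shared bases cannot be assigned to either gene.

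Acsl4 prefers arachidonic acid and is known for supplying the polyunsaturated phospholipids that are oxidised in ferroptosis. On the X chromosome (chrX:142317993-142390535, minus strand), it had 93.5, 91.2 and 96.7 CPM with ChREBP-beta and 96.6, 97.1 and 105 CPM with GFP. The groups overlapped by a narrow margin. The log2 fold change of -0.09 had a 95% interval of -0.17 to -0.0018, with an unadjusted p = 0.0456 and an adjusted p = 0.0736 in edgeR, so it was not called. It was called under 4 other settings, at adjusted p = 0.0154 with upper-quartile scaling, 0.00922 with library size alone, 0.0311 with genes under 5 CPM left out and 0.0436 without GFP replicate 1.

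Acsl6 (chr11:54303798-54364756, plus strand), a synthetase of brain and testis that favours docosahexaenoic acid, was hardly expressed. Its counts were 9, 0 and 9 with ChREBP-beta and 1, 2 and 3 with GFP. The groups overlapped, the gene did not pass the filter on low counts, and no change was tested.

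**Figure D2:**
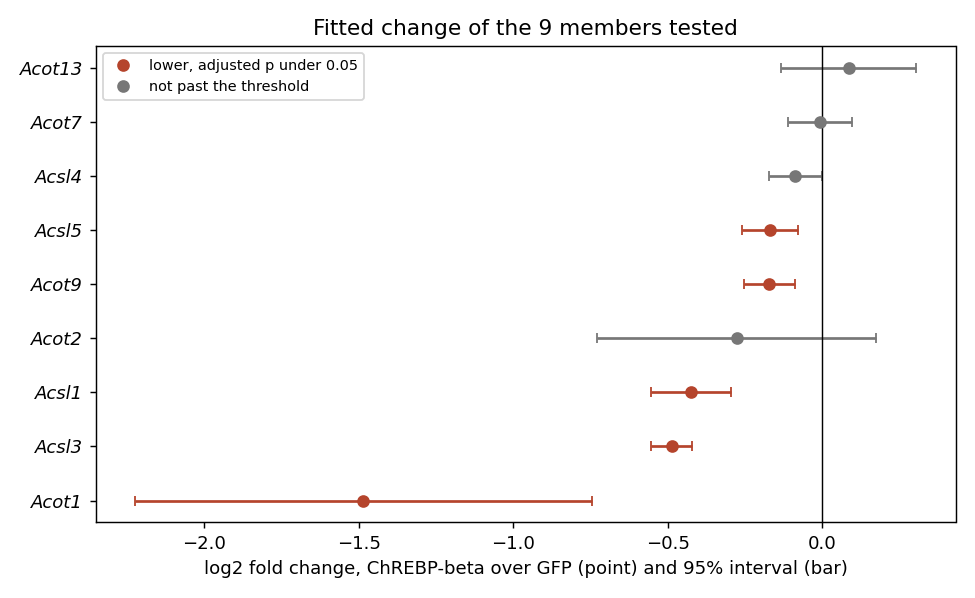
Fitted log2 fold change (ChREBP-beta over GFP) of the 9 members tested, with 95% intervals, largest at the top; red points passed an adjusted p under 0.05. Acot1 has the lowest estimate, -1.49, and the widest interval, and the intervals of Acot13, Acot7 and Acot2 include 0.

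Acot1, the cytosolic thioesterase of the pair, showed the largest change of the members at the lowest level of those tested. Its estimated counts were 8.81, 14.42 and 11 with ChREBP-beta, against 35, 29 and 33.29 with GFP, or 0.627 ± 0.144 CPM with ChREBP-beta and 1.76 ± 0.138 CPM with GFP (SD, n = 3 each). No ChREBP-beta library reached the lowest GFP library. The fall was 2.80-fold (log2 fold change -1.49, 95% interval -2.22 to -0.75, edgeR adjusted p = 9.92e-04). Acot1 passed the filter on low counts through its GFP libraries, the group where it was higher, since ChREBP-beta replicate 1 was under the minimum count of 10.

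Acot2, the mitochondrial partner, was read at 4.09, 2.79 and 2.66 CPM with ChREBP-beta and 3.61, 3.82 and 4.16 CPM with GFP. ChREBP-beta replicate 1 lay among the GFP libraries and the other two below them. Its log2 fold change of -0.28 had an interval of -0.73 to 0.17 (edgeR adjusted p = 0.284). Whether Acot1 and Acot2 changed by different amounts was not tested.

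The counts of the pair are tied. In each of the 3 libraries where Acot1 was not whole, Acot2 was not whole either and their sum was, so reads had been divided between them. Counted as 1 gene, an alternative chosen after their values were seen, the pair had 84, 67 and 57 counts with ChREBP-beta and 104, 98 and 108 with GFP. The groups did not overlap, and the log2 fold change was -0.56 (SE 0.18, edgeR adjusted p = 0.00944). Acot1 made up 16.5% of the pair's counts with ChREBP-beta and 31.4% with GFP.

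Acot9, a mitochondrial thioesterase encoded on the X chromosome (chrX:155262443-155297654, plus strand), was the most abundant of the 5 Acot members. It had 86.6, 93.5 and 87.1 CPM with ChREBP-beta and 100.8, 100.9 and 99.5 CPM with GFP. The GFP libraries lay within a narrow band and all ChREBP-beta libraries below it. Acot9 fell 1.13-fold (log2 fold change -0.17, SE 0.040, edgeR adjusted p = 6.65e-04).

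Acot7 and Acot13 were not called. Acot7 (chr4:152178134-152271855, plus strand), a cytosolic enzyme abundant in brain, had 76.1, 69.4 and 74.7 CPM with ChREBP-beta and 77.6, 75.6 and 68.0 CPM with GFP. The libraries of the groups were interleaved, and the log2 fold change of -0.01 had a 95% interval of -0.11 to 0.10 (edgeR adjusted p = 0.901). Acot13 (chr13:24817948-24831540, minus strand), a small thioesterase that binds phosphatidylcholine transfer protein, had 11.5, 14.4 and 14.6 CPM with ChREBP-beta and 12.1, 13.2 and 12.9 CPM with GFP. ChREBP-beta replicate 1 was the lowest library and the other two the highest, and the log2 fold change was 0.09 (95% interval -0.13 to 0.30, edgeR adjusted p = 0.505).

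Levels were compared between members per kilobase of annotated exons. Among the synthetases the order in both groups was Acsl3, Acsl5, Acsl4, Acsl1 and Acsl6. Acsl3 stood at 48.1 ± 1.26 CPM per kilobase with ChREBP-beta and 67.5 ± 2.23 with GFP (SD, n = 3 each). Acsl5 stood at 18.4 ± 0.564 with ChREBP-beta and 20.6 ± 1.21 with GFP, and Acsl4 at 17.4 ± 0.512 with ChREBP-beta and 18.4 ± 0.914 with GFP. The order of Acsl5 and Acsl4 rests on little: the highest Acsl4 library and the lowest Acsl5 library both rounded to 17.9 with ChREBP-beta, and with GFP the libraries overlapped. Acsl1 stood at 3.31 ± 0.221 with ChREBP-beta and 4.44 ± 0.248 with GFP. Its annotated exons together span 10483 bases and its longest coding transcript 3897. By that transcript, a length tried after the values were seen, its level was 8.90 with ChREBP-beta and 11.9 with GFP, and the order was the same.

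Summed over the 5 synthetases, the level was 87.8, 85.3 and 88.5 CPM per kilobase with ChREBP-beta and 108, 113 and 112 with GFP. The groups did not overlap. Acsl3 alone made up 81.3% of the difference, and its share of the sum was 55.2% ± 1.03 with ChREBP-beta and 60.8% ± 0.759 with GFP (SD, n = 3 each). The shares of Acsl5 and Acsl4 were higher, at 21.1% and 19.9% with ChREBP-beta and 18.6% and 16.6% with GFP. No test was made of these sums, since the members were chosen.

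The summed level of the 5 thioesterases was nearer between groups, at 91.3, 94.7 and 94.5 CPM per kilobase with ChREBP-beta and 99.3, 99.8 and 95.4 with GFP. Acot9 led at 39.2 ± 1.70 with ChREBP-beta and 44.2 ± 0.341 with GFP, then Acot7 at 34.6 ± 1.65 with ChREBP-beta and 34.7 ± 2.40 with GFP (SD, n = 3 each). Acot13 followed at 18.2 with ChREBP-beta and 17.1 with GFP. By the longest annotated transcript as length, the order of Acot9 and Acot7 was the same. With ChREBP-beta they then lay nearer each other, at 50.8 and 48.8, and with GFP they stood at 57.3 and 49.0. Acot2 made up 1.56% of the sum with ChREBP-beta and 1.79% with GFP, and Acot1 0.171% with ChREBP-beta and 0.459% with GFP.

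**Figure D3:**
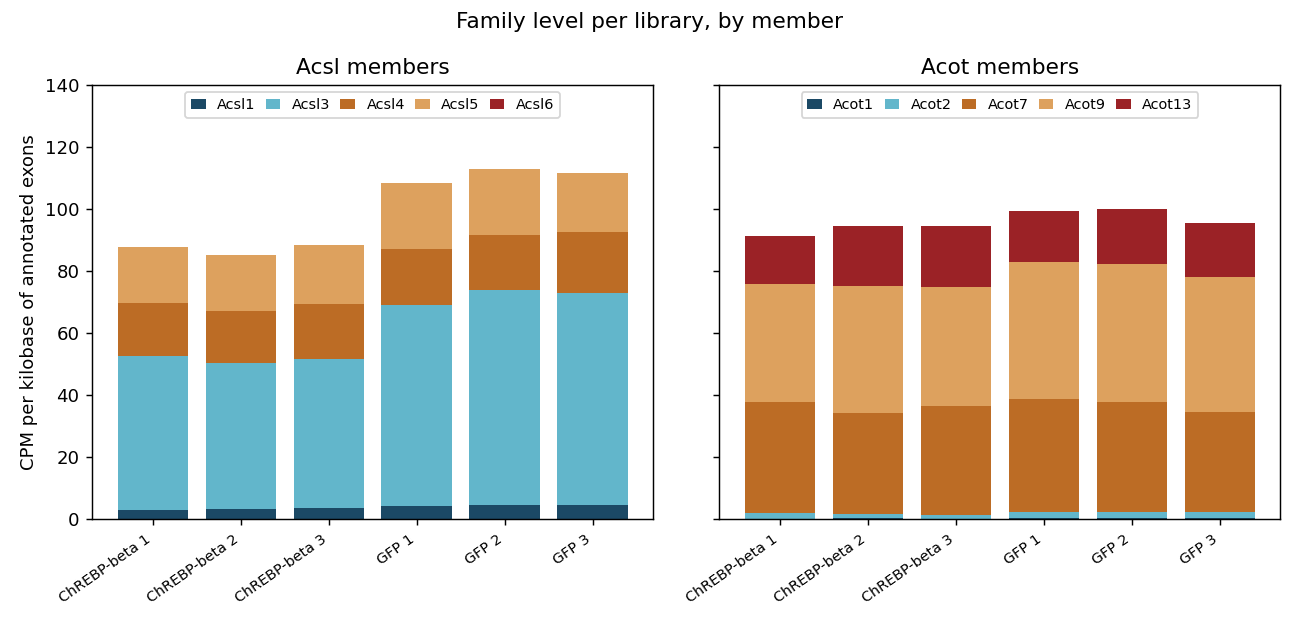
Level of each family in each library as stacked CPM per kilobase of annotated exons, by member, with ChREBP-beta libraries left of GFP libraries. The Acsl stack reaches 85.3 to 88.5 with ChREBP-beta and 108 to 113 with GFP, mostly through the Acsl3 layer, while the Acot stacks lie between 91.3 and 99.8.

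ChREBP and its partner Mlx bind paired E-box sites spaced by 5 bases, and PPAR receptors bind 2 half-sites spaced by 1 base. The letters sought here were CACGTG for the E-box and AGGTCA for the half-site. Both were sought on both strands in RefSeq promoter windows, which run 250 bases before to 50 after an annotated start (GRCm38.p6), and 9 of the 10 members had 12 such windows. None of the 12 held a single E-box, which 7.15% of all 32851 windows hold. None held the spaced E-box pair (0 of all windows), such a pair with CANNTG in place of one E-box (0.067% of all windows) or the spaced half-sites (0.0396%). Both pair motifs contain the E-box, so pairs without an exact CACGTG were not sought. With such low shares over all windows, the absence of the pairs and half-sites does not set the members apart. The absence says only that these letters are not in these windows.

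Other genes of acyl-CoA metabolism moved in both directions. Over all genes tested 58.7% were called, 29.5% higher and 29.3% lower. Of 20 other CoA ligases, 10 were tested, and 4 were higher, 4 lower and 2 not called (80% called), with a median log2 fold change of -0.19. Acsbg1, a very-long-chain synthetase known from brain and steroid-making glands, rose 8.73-fold to 16.9, 17.1 and 20.9 CPM with ChREBP-beta, against 1.94, 2.66 and 1.67 CPM with GFP (edgeR adjusted p = 7.27e-15). Slc27a6, a fatty acid transport protein of heart, had 61 counts over the ChREBP-beta libraries and 1 over the GFP libraries, a ratio of 61.7 (95% interval 10.7 to 2478, which covers counting error only; edgeR adjusted p = 1.58e-06). Its fitted log2 fold change was 5.50, against 7.35 without GFP replicate 1, which held the only GFP count, and 4.86 with limma-voom. Slc27a6 passed the filter on low counts only through its ChREBP-beta libraries, the group where it was high. Slc27a1, the fatty acid transporter and synthetase of muscle and fat, rose 1.62-fold to 66.1 ± 1.91 CPM with ChREBP-beta, against 40.8 ± 3.64 CPM with GFP (SD, n = 3 each). Acss2, which activates acetate, was 1.36-fold lower (edgeR adjusted p = 6.86e-07). In each of these genes the groups did not overlap, as in 63.2% of all genes tested.

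Of 21 other thioesterases, 11 were tested, with 4 higher, 3 lower and 4 not called, and a median log2 fold change of -0.10. The share called, 63.6%, was near the 58.7% of all genes tested. Abhd17c, a depalmitoylase of membrane proteins, was 1.48-fold higher (edgeR adjusted p = 1.17e-08). The acyl-protein thioesterases Lypla2 and Lypla1 were 1.16-fold and 1.09-fold higher, and Lypla1 was not called with library size alone as the scaling (edgeR adjusted p = 0.0562). Hibch, a mitochondrial hydrolase of valine breakdown, fell 1.35-fold (edgeR adjusted p = 3.62e-05). Acot3, Acot5 and Acot10 had no counts, and Acot4, Acot6, Acot11 and Acot12 were too low to be tested.

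Of 18 genes tested for CoA supply and acyl-CoA binding, 4 were higher, 3 lower and 11 not called, with a median log2 fold change of 0.06. That is 38.9% called, below the 58.7% of all genes tested. Pank1, a pantothenate kinase that opens CoA synthesis, fell 2.26-fold, to 15.8 ± 1.76 CPM with ChREBP-beta against 35.6 ± 1.84 CPM with GFP (SD, n = 3 each; edgeR adjusted p = 4.42e-12). Its paralog Pank3, which was more abundant, rose 1.21-fold to 313 ± 7.88 CPM with ChREBP-beta, against 259.6 ± 14.8 CPM with GFP (SD, n = 3 each). Fabp4, the fatty acid binding protein of fat cells, rose 6.69-fold at low counts, 52, 48 and 35 with ChREBP-beta and 3, 10 and 7 with GFP. It passed the filter on low counts only through its ChREBP-beta libraries, where it was higher. Acbd5, an acyl-CoA binding protein of peroxisomes, was 1.16-fold lower.

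Among enzymes that use acyl-CoA, 7 of 24 tested were higher, 9 lower and 8 not called (median log2 fold change -0.10). Calls covered 66.7% of them, beside 58.7% of all genes tested. The carnitine palmitoyltransferases Cpt2 and Cpt1c fell 1.54-fold and 1.79-fold (edgeR adjusted p = 8.06e-08 and 3.20e-07). Lpcat3, which places polyunsaturated chains into phospholipid, fell 1.43-fold to 70.8 ± 0.377 CPM with ChREBP-beta, against 101 ± 1.80 CPM with GFP (SD, n = 3 each). Agpat3, an acyltransferase of phosphatidic acid synthesis, rose 1.31-fold. Of the regulators listed, 3 of 12 tested were higher, the overexpressed Mlxipl among them, 4 were lower and 5 were not called. Their share called, 58.3%, was near that of all genes tested. The lipid-sensing receptor Ppard rose 1.66-fold and its partner Rxrb 1.22-fold, Mlxip, the paralog of the overexpressed factor, fell 1.30-fold, and Ppara had too few counts to be tested.

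**Figure D4:**
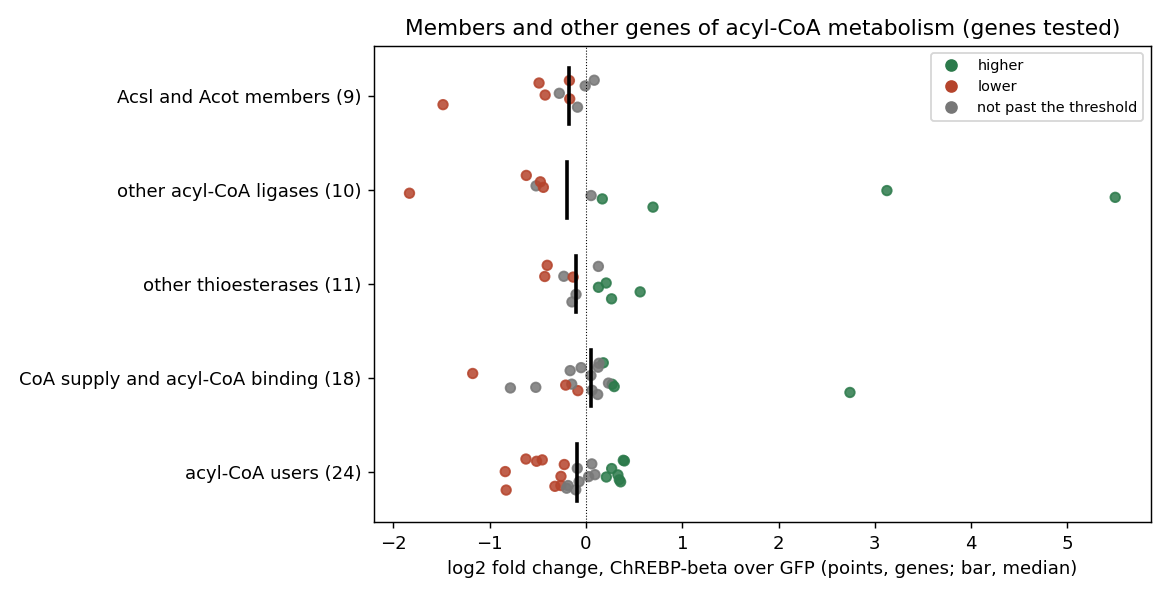
Fitted log2 fold change (ChREBP-beta over GFP) of the genes tested among the members and 4 further lists of acyl-CoA genes; each point is a gene and the black bar the median. The members' median and called points lie below 0, and the other ligases run from -1.83 to 5.50.

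The genes most like Acsl3 over the 6 libraries, by the root mean square difference of centred log2 CPM among 9752 genes, were Tbl1xr1 (0.022), Rnf150 (0.023) and Dpy19l1 (0.024). Those most like Acsl1 were Bcl9 (0.045), Gss (0.045) and Arhgap22 (0.046). With 2 groups the measure mostly finds genes with a like difference between them.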

How the data were processed

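RNA of 6 C2C12 samples was extracted with Trizol and made into Illumina libraries, per the labels. The authors deposited estimated counts per gene symbol, not normalized, with a column per library; 7.74% of the values were not whole (beyond 0.005). Tools named per the submitters' processing notes are TopHat2 2.0.0, Bowtie2 2.0.0.5 and fastp. Those notes list a chicken build (GRCg6a), although the gene symbols are mouse ones. The mouse build, the counting tool and its strand setting were not found in these sources.

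Rows of a symbol were summed and rounded. edgeR 4.0.16 (R 4.3.3) tested 12166 genes after filterByExpr (minimum count 10, minimum total 15) with TMM scaling, glmQLFit and glmQLFTest without further terms, two-sided. A standard error is the log2 fold change over the square root of F. At 1 CPM a library has 17.3 to 19.1 counts. The procedure was run on simulated counts in which few genes changed, unlike these data, so its error rate for these data was not measured. Pairs of libraries within a group differed beyond sampling noise (chi-square per degree of freedom 2.17 to 3.98), so all were kept as separate. Locations and exon lengths are from GENCODE M21 (GRCm38), promoters from RefSeq, both matched by symbol, and coding sequences were aligned with Biopython 1.88.

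No protein sequences were used, so identity is given for coding bases. The members and the 5 further lists were chosen with earlier results of these data known. Of each list the text names up to 4 called genes with the smallest adjusted p, and for Acsl3 and Acsl1 the 3 genes most alike with at least 5 CPM. Alternatives were other scalings, filters, DESeq2 1.42.0, limma-voom (limma 3.58.1), values rounded down, a replicate block, each library left out, a 1.5-fold minimum and other transcript lengths.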

Additional observations from a re-analysis of the deposited data

How the results depend on the processing

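Acsl1, Acsl3, Acsl5 and Acot9 kept direction and call in all 17 alternatives beside the 1.5-fold minimum. Acot1 did so in the 15 that gave it a value, since it was too low for the filter at 5 CPM and has none of its own when counted with Acot2. Members called ran from 5 to 6 with each library left out, and the sixth was Acsl4. Acot7, which was not called, ran from -0.057 to 0.034 on the log2 scale with each library left out. It was positive without ChREBP-beta replicate 2, GFP replicate 1 or GFP replicate 2.

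A minimum change of 1.5-fold left 1 member (Acot1, lower), 2412 of all genes (907 higher and 1505 lower), 5 other ligases, 0 other thioesterases, 2 genes of CoA supply and binding, 3 users of acyl-CoA and 3 regulators. These counts are smaller by construction. The median log2 fold change of all genes lay between -0.05 and -0.000113 over the scalings.

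With the replicate number as a block, 5 members and 6902 of all genes were called, against 7145 without it. The labels do not say that a number marks a shared batch, and the deviations of same-numbered libraries correlated at -0.02, 0.0015 and -0.04. No library correlated best with its own number.

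Acot1, Acot2 and Acsl6 are limited by their low counts. The division of reads between Acot1 and Acot2 adds an uncertainty that the intervals do not cover.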

Other observations

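The nearest tested genes on both sides of the 10 members that do not overlap them were compared, leaving out the members themselves. Utp14b, which overlaps Acsl3, and Zdhhc6, which overlaps Acsl5, were therefore not counted. The distances ran from 139 bases (Tdp2 beside Acot13) to 726926 bases (Scg2 beside Acsl3). Of these 18 flanking genes 5 were higher, 7 lower and 6 not called, so 66.7% were called, beside 58.7% of all genes tested. Acot2 and Acot1 are flanked by Riox1, a chromatin-linked oxygenase gene, which was higher (log2 fold change 0.52, edgeR adjusted p = 7.22e-05), and Dnal1, a light chain of axonemal dynein, which was lower (log2 fold change -0.61, edgeR adjusted p = 7.18e-08). Both genes beside Acsl1 were lower, Slc25a4 and Cenpu (log2 fold changes -0.43 and -0.22), as were both beside Acot9, Sat1 and Prdx4 (-0.16 and -0.28). Beside Acsl3, Farsb was higher (0.16) and Scg2 not called, and neither Gpam nor Vti1a beside Acsl5 was called. These neighbours were looked up after the members' values were seen.

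In 3 pairs of genes that share exon bases or are near copies, values that were not whole had whole sums. In ChREBP-beta replicate 3, Acsl5 had 1597.99 counts and Zdhhc6 1453.01, which sum to 3051. Acsl3 with Utp14b and Acot1 with Acot2 also gave whole sums in each library where the member's value was not whole, and other genes with such values were not examined for partners.

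Acot11, a thioesterase of brown fat, did not pass the filter on low counts, with 0, 4 and 1 counts with ChREBP-beta and 10, 25 and 21 counts with GFP. All ChREBP-beta libraries lay below all GFP libraries. It was singled out after its values were seen.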
